A study of Mus musculus with 8 samples.

Results

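The genes described here are 42 immediate early and stress response genes, taken from a list of names and read in single cells of mouse lung grafts. The list holds 7 genes of the AP-1 family (Fos, Fosb, Fosl2, Jun, Junb, Jund and Atf3), the Egr, Ier and Nr4a genes, Myc, 4 Dusp phosphatases, 3 Klf factors, inhibitors of NF-κB and of cytokine signals, regulators of G protein signals, Gadd45 genes, 4 heat shock genes and others. All 42 were found among the 17921 genes of the count matrix. They took 411842 UMIs, 0.941% of all UMIs of 20778 cells. Klf2 gave 14.1% of these, Btg1 12.1%, Junb 9.67%, Dusp1 7.36% and Jund 7.13%, so 5 genes gave 50.3% of the signal. The scarcest was Egr3, with 114 UMIs.

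Left lung grafts were taken 1 month after lung transplantation (LTx) from 5 B6→B6 and 3 HLA→B6 mice, a control and a model of bronchiolitis obliterans syndrome. In B6→B6, donor and recipient were both C57BL/6 (B6). In HLA→B6, the donor came from a strain on the C57BL/6 background with the transgene Tg(HLA-A2.1)1Enge, a human HLA-A2, and the recipient was B6, so cells of the recipient in the graft do not carry the transgene. All mice were male, and neither group received immunosuppression. Each graft was digested with a lung dissociation kit, 10000 cells were loaded, and the 3′ ends of transcripts were counted as UMIs, 1 count per captured molecule. All cells of a mouse went through the same digestion and the same library, so the state of the genes in the graft and a change during its handling cannot be told apart for a single mouse.

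Immediate early genes are switched on within minutes of a stimulus, without new protein synthesis, by factors that already sit at their promoters. Their products are transcription factors, phosphatases and RNA-binding proteins that pass the signal on or shut it off, and their transcripts decay fast. Heat shock genes encode chaperones that hold or refold proteins under stress. Both groups are known to rise in cells that are freed from tissue by warm enzyme digestion, as well as in cells stimulated in the tissue.

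Of the 42 genes, 34 had a promoter entry in RefSeq (GRCm38.p6), from 250 bases before to 50 after the start of transcription. Nfkbiz, Egr1, Hsp90aa1, Ier2, Myc, Egr3, Rgs1 and Cd69 had none. The core of the cAMP response element, TGACGT on either strand, stood in windows of 11 of the 34 genes (32.4%), and in 7.51% of all 32851 windows. The full element TGACGTCA, which contains the core, stood in those of Btg2, Dusp1 and Ppp1r15a (8.8%), against 1.79% of all windows. The AP-1 site TGANTCA was found in 2 of 34 (5.9%, all windows 7.81%), the CArG box of serum response factor in 3 (8.8%, all windows 1.63%), an NF-κB site in 10 (29.4%, all windows 8.46%), and a heat shock element of 3 alternating units (GAANNTTCNNGAA or TTCNNGAANNTTC) in 0 (all windows 0.603%). Both strands were searched, and a match of letters does not show that a factor binds. Only full matches in these windows counted, so a lack of matches does not show that a promoter lacks the element. The Hspa1a and Hspa1b windows below hold the shorter stretch GAANNTTC, as gaagattc. The windows of Fos and Dusp1 are shown because Fos fell in monocytes of HLA→B6 grafts and Dusp1 was the most abundant of the genes in leukocytes. Capitals mark the core TGACGT and the full element. Fos lies at chr12:85473640-85473939 on the plus strand and Dusp1 at chr17:26508423-26508722 on the minus strand.
Fos: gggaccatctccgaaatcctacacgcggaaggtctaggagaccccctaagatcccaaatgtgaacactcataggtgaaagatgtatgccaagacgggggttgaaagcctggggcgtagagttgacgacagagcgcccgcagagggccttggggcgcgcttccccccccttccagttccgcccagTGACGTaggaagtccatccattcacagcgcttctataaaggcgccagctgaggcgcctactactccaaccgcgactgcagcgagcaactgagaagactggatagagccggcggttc
Dusp1: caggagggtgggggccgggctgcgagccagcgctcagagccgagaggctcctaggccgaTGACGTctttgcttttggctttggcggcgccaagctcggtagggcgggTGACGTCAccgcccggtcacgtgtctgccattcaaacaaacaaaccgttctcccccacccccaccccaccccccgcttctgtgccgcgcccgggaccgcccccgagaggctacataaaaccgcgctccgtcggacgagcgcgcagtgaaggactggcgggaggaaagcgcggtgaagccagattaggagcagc
In Fos the core begins 66 bases before the start of transcription. In Dusp1 the core begins at 191 and the full element at 143 bases before it.

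Hspa1a and Hspa1b, which encode near-identical inducible HSP70 chaperones, are shown because their counts cannot be taken as 2 separate measures: the sources used here do not say how reads were divided between such copies. Their windows, at chr17:34972107-34972406 and chr17:34959189-34959488, both on the minus strand, were 98.7% identical and differed at 4 positions, marked by capitals.
Hspa1a: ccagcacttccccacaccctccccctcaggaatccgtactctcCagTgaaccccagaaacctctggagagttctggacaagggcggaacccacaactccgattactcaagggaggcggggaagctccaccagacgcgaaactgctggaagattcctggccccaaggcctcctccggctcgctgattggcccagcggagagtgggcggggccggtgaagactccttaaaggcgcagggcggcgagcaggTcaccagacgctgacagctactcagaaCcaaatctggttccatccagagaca
Hspa1b: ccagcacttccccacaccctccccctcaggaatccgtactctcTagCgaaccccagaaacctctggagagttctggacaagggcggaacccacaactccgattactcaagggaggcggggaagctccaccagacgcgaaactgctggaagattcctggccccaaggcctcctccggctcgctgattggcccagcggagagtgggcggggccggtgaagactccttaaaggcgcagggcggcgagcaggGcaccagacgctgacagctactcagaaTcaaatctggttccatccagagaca
Over the medians of 8 cell types, Hspa1b was the gene whose level was most like that of Hspa1a among the 42 (Pearson r = 0.96 on log2(CPM + 10), a description over 8 points).

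Cell types are those of the deposited table. Median depth was 1356 to 1948 UMIs per cell in the 8 mice, and 868 to 6544 cells were recovered per mouse. HLA→B6 mice are numbered as in that table, while the cell names call them 2, 3 and 5. In 5 pairs among B6→B6 mice 1, 2 and 3 and HLA→B6 mouse 2 the libraries shared 39 to 160 cell barcodes, over 2.5% of the smaller one. These 4 are called the linked libraries, although B6→B6 mouse 3 and HLA→B6 mouse 2 shared 23 (0.945%), fewer than the 35 of the highest pair outside them. The cells named leukocytes carried 133346 to 225460 CPM of 5 neutrophil markers (S100a8, S100a9, Retnlg, Csf3r and Cxcr2) in B6→B6 and 156186 to 194326 CPM in HLA→B6 mice. Lung structural cells held a cluster of 322 red blood cells, and their hemoglobin and Alas2 counts ran from 71961 to 738969 CPM in B6→B6 and from 78886 to 577527 CPM in HLA→B6 mice. Levels below are in CPM, a gene's share of the UMIs summed over the cells of a type in a mouse with at least 10 such cells, where 10000 CPM is 1%. Of 11 types, 8 had enough mice for a comparison.

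The 42 genes were most abundant in leukocytes, in which 21 of them had their highest median level of the 8 types. Dusp1, a phosphatase that switches off MAP kinases, stood there at a median of 6258 CPM (3638 to 7192 over 7 mice). Junb reached 5929 CPM (2388 to 7020) and Fos, an inducible part of the AP-1 dimer, 4615 CPM (1525 to 5783). In no other type compared did a gene of the list reach these medians. After leukocytes came monocytes (Fos 2088 CPM, 722 to 3269.7 over 8 mice), alveolar macrophages (630.2 CPM, 427 to 1256), myeloid cells (468 CPM), B cells (365 CPM), natural killer cells (214 CPM) and T cells (199 CPM), and lung structural cells were lowest (69.3 CPM, 4.44 to 450.4). The ranges of neighbouring types in this order overlapped. The genes whose medians over the 8 types were most like those of Fos were Zfp36 (r = 0.93), which destabilizes AU-rich transcripts, Fosb (r = 0.93) and Rgs2 (r = 0.90).

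Lung structural cells were highest for 6 genes, among them Klf4, Jun and both Hspa1 genes. Klf2, a factor of quiescent endothelium and lymphocytes, was their most abundant member at 2365 CPM (832 to 4330), followed by Jun at 1032 CPM (182 to 2378). Within structural cells, Klf2 stood at 4952 CPM over the pooled cells of cluster 0, named MHC II+ endothelial cells in the table, and at 94.1 CPM in the cluster of red blood cells. Lymphocytes were led by Btg1, an antiproliferative gene, at 2408 CPM (1961 to 3026) in B cells and 1999 CPM (1829 to 2467) in T cells, where Klf2 came second in both. Natural killer cells had the highest Dusp2, a nuclear MAP kinase phosphatase, at 793 CPM, and the highest Rgs1, which dampens chemokine receptor signals, at 282 CPM. The immediate early repressor Atf3 was highest in monocytes (147 CPM) and had a median of 0 in T cells.

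**Figure D1:**
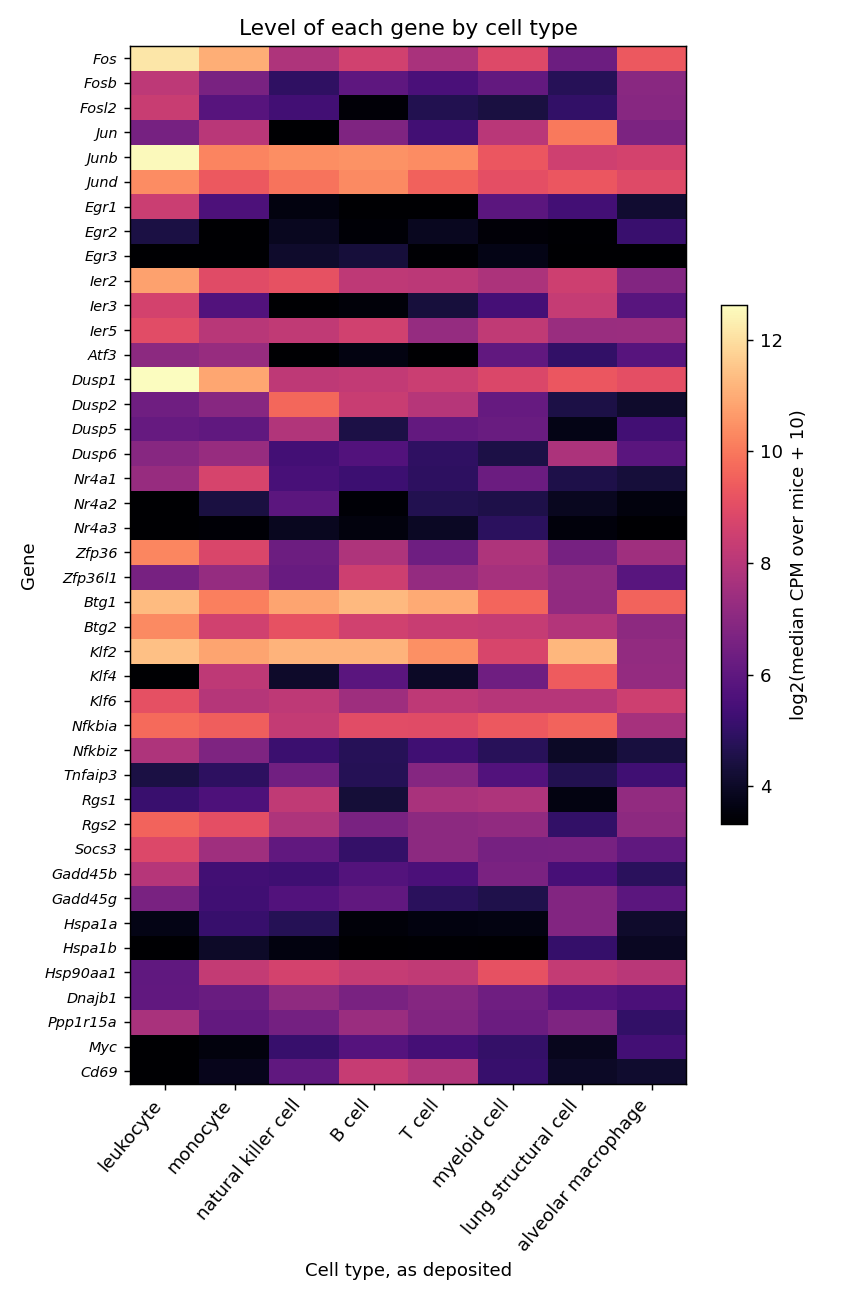
Level of the 42 genes (rows) in 8 deposited cell types (columns), as the log2 of the median CPM over mice plus 10. Dusp1, Junb and Fos in leukocytes are the brightest cells, and Klf2 and Btg1 are bright in lymphocytes.

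Types with few mice lay outside this range. In mast cells, with 10 or more cells in 3 mice, the 42 genes took 5.42% and 4.07% of UMIs in B6→B6 mice 2 and 3 and 2.03% in HLA→B6 mouse 1. Junb led there, at 8968, 5271 and 3457 CPM in the same mice. Rgs1 stood at 5960, 3151 and 1178 CPM in them. In plasma cells of HLA→B6 mice 1 and 2 the genes took 0.148% and 0.337% of UMIs. No test was made for these types.

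The share of UMIs from the 42 genes was lower in HLA→B6 mice in most types, and 1 B6→B6 mouse stood above the others nearly throughout. In monocytes the share was 2.15%, 1.63%, 1.62%, 1.67% and 1.42% in B6→B6 mice 1 to 5 and 0.889%, 1.16% and 1.22% in HLA→B6 mice 1 to 3. In B cells it was 1.70%, 1.35%, 1.28%, 1.32% and 1.27% against 0.759%, 0.995% and 1.14%. Every HLA→B6 mouse lay below every control in both types, and so they did in T cells (0.715% to 0.892% against 0.907% to 1.45%) and alveolar macrophages (0.444% to 0.488% against 0.520% to 0.826%). In the T cells the sum of 5 markers of natural killer cells (Ncr1, Klrb1c, Gzma, Nkg7 and Klre1) was 643 to 1435 CPM in B6→B6 and 1912 to 3241 CPM in HLA→B6 mice, with all 5 detected. In the monocytes that of 5 plasma cell markers (Jchain, Mzb1, Sdc1, Xbp1 and Derl3) was 201 to 309 and 311 to 409 CPM. Whether such counts came from other cells or from the cells of the type itself was not tested. Their part in the shares was not tested either. These are 4 of the 7 types with 10 cells in all 8 mice. With cells that share a barcode left out they were 3 (B cells, monocytes and alveolar macrophages), and with the mean log2 level of the genes in place of the sum, 1 (alveolar macrophages). In alveolar macrophages 17.7% of all genes had every HLA→B6 mouse below every control, and 5.14% above. In B cells, monocytes and T cells 1.6%, 1.24% and 1.51% of all genes lay below.

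Groups overlapped in natural killer cells (1.07% to 1.59% in B6→B6, 0.837% to 1.11% in HLA→B6), myeloid cells (0.626% to 1.61% and 0.618% to 0.767%) and lung structural cells (0.320% to 2.09% and 0.382% to 1.18%). Without the red blood cells the structural shares were 1.02% to 2.25% and 0.903% to 1.29%, which still overlapped. In leukocytes the shares were 3.46%, 3.61%, 3.83%, 3.96% and 3.62% in B6→B6 mice 1 to 5 and 1.90% and 2.82% in HLA→B6 mice 1 and 2, with 17 to 293 and 864 and 46 cells. No p is given for such sums, since the genes were chosen with earlier results of these data known.

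**Figure D2:**
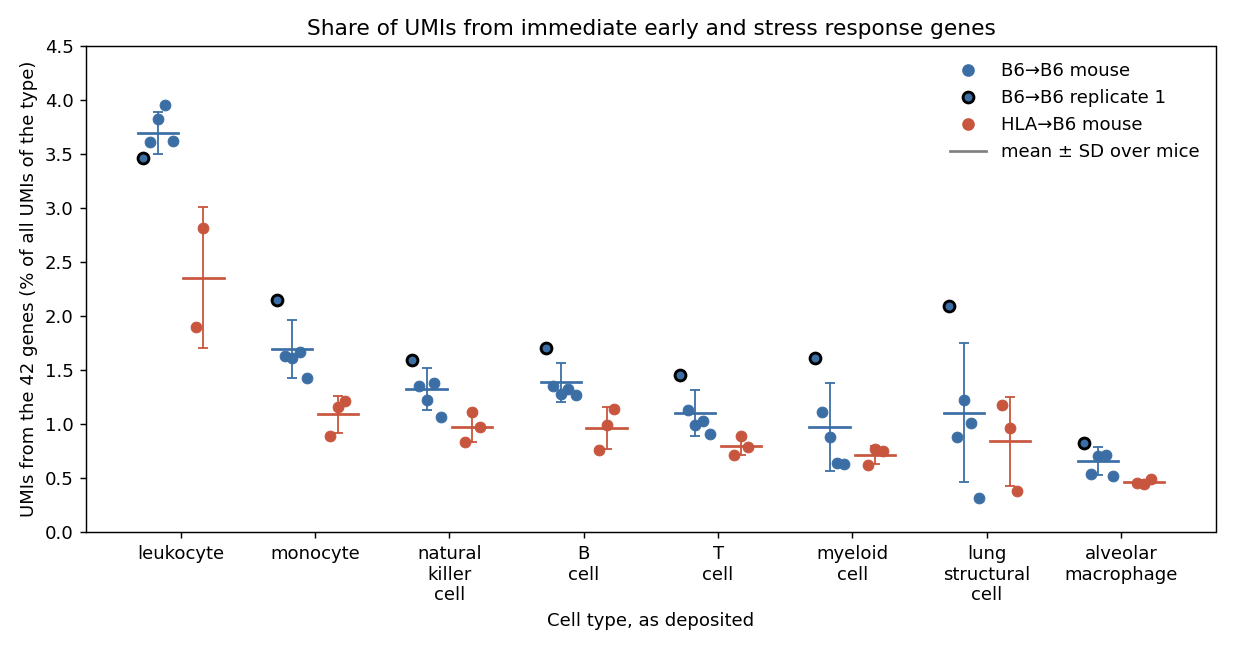
Percent of UMIs from the 42 genes (y axis) in each deposited cell type (x axis), with 1 point per mouse, blue for B6→B6, red for HLA→B6, and bars for mean ± SD. B6→B6 mouse 1, outlined in black, is the highest mouse in 7 of the 8 types, and in leukocytes it is the lowest of the B6→B6 mice at 3.46%.

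Whether the genes moved together across types within a mouse was read from the rank of each mouse in the 7 types. B6→B6 mouse 1 had the highest share in 7 of 7 types, and HLA→B6 mouse 1 the lowest in 5 of 7. The share in B6→B6 mouse 1 was highest also with cells of at least 500 UMIs, without cells that share a barcode, and with the mean log2 level, in 7 of 7 types each. Without cells over 3 times the median UMIs of their type and mouse it was highest in 6 of 7, and came seventh of 8 in myeloid cells, at 0.632% against 1.61% with these cells kept. As B6→B6 mouse 1 was above its own group, the types in which the groups did not overlap do not rest on it. B6→B6 mouse 1 also had the lowest or second lowest share of mitochondrial UMIs in 7 of 7 types, and HLA→B6 mouse 3 had the highest in 5 of 7. In the myeloid cells of B6→B6 mouse 1 the median depth was 637 UMIs and 31.0% of cells had under 500 UMIs. The mean mitochondrial share was higher in HLA→B6 than in B6→B6 mice in each type compared. It was 1.32% against 0.833% in monocytes, 1.94% against 0.959% in structural cells and 1.81% against 1.78% in alveolar macrophages. The part of depth and of the mitochondrial share in the order of the mice, or in the difference between the groups, was not tested.

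Single genes were ranked over the mice in the same way. Of the 26 genes of the list with a mean of at least 5 counts per mouse in each of the 7 types, 14 (53.8%) had 1 mouse highest in 4 or more types, as had 16.99% of all 4233 genes with such counts. For 8 of the 26 (30.8%) that mouse was B6→B6 mouse 1, against 6.57% of all genes. Fos and Jund were highest in B6→B6 mouse 1 in 7 of 7 types, which held for 6 of the 4233 genes. Dusp1 and Hsp90aa1 were highest there in 6. Nr4a1, an orphan nuclear receptor induced by antigen receptor signals, was instead highest in B6→B6 mouse 4 in 6 types. Rgs1 was highest in HLA→B6 mouse 2 in 5.

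Fos shows the pattern over types. In T cells it stood at 553, 211, 188, 313 and 179.8 CPM in B6→B6 mice 1 to 5 and at 26.4, 229 and 59.4 CPM in HLA→B6 mice 1 to 3. In myeloid cells it stood at 1927, 1419, 1175, 482 and 137 CPM and at 318, 292 and 454 CPM. In lung structural cells it stood at 450.4, 127, 102, 249.99 and 8.15 CPM and at 36.5, 4.44 and 12.99 CPM. In all 3 types B6→B6 mouse 1 was highest, B6→B6 mouse 5 was the lowest of its group, and the groups overlapped.

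The heat shock genes followed another order of mice than the early genes. Their sum was highest in B6→B6 mouse 1 in 6 of 7 types, but second came B6→B6 mouse 5 in B cells, T cells, monocytes, myeloid cells and natural killer cells, a mouse that ranked 5 to 8 for the early genes. Hsp90aa1, a cytosolic chaperone of kinases and receptors, stood in B cells at 1457, 197, 207, 342 and 1009 CPM in B6→B6 mice 1 to 5 and at 191, 278 and 697 CPM in HLA→B6 mice 1 to 3. Dnajb1, the co-chaperone that hands clients to HSP70, stood in T cells at 194, 66.8, 74.8, 146 and 301 CPM and at 74.0, 54.4 and 180.2 CPM. For these genes in these types, mice 1 and 5 of B6→B6 and mouse 3 of HLA→B6 were thus the high ones. Other types differed: the heat shock sum was highest in B6→B6 mouse 4 in myeloid cells (0.132%). In structural cells HLA→B6 mouse 2 came second (0.103%). The groups overlapped for every heat shock gene in every type tested, and none passed the test. Hspa1a was far higher in structural cells of B6→B6 mouse 1 (1075 CPM) than in the other B6→B6 mice (50.1 to 145 CPM) and the HLA→B6 mice (39.0 to 109.9 CPM).

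Other genes of these pathways, from lists that do not contain the 42, ranked the mice differently from each other. The sum of 21 further heat shock genes was highest in B6→B6 mouse 1 in 6 of 7 types, with B6→B6 mouse 5 second in B, T and natural killer cells. The sum of 35 further immediate early genes ranked B6→B6 mouse 1 last of 8 in B cells, monocytes and natural killer cells, and first in structural cells. The order of the mice thus differed between the listed early genes and these.

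**Figure D3:**
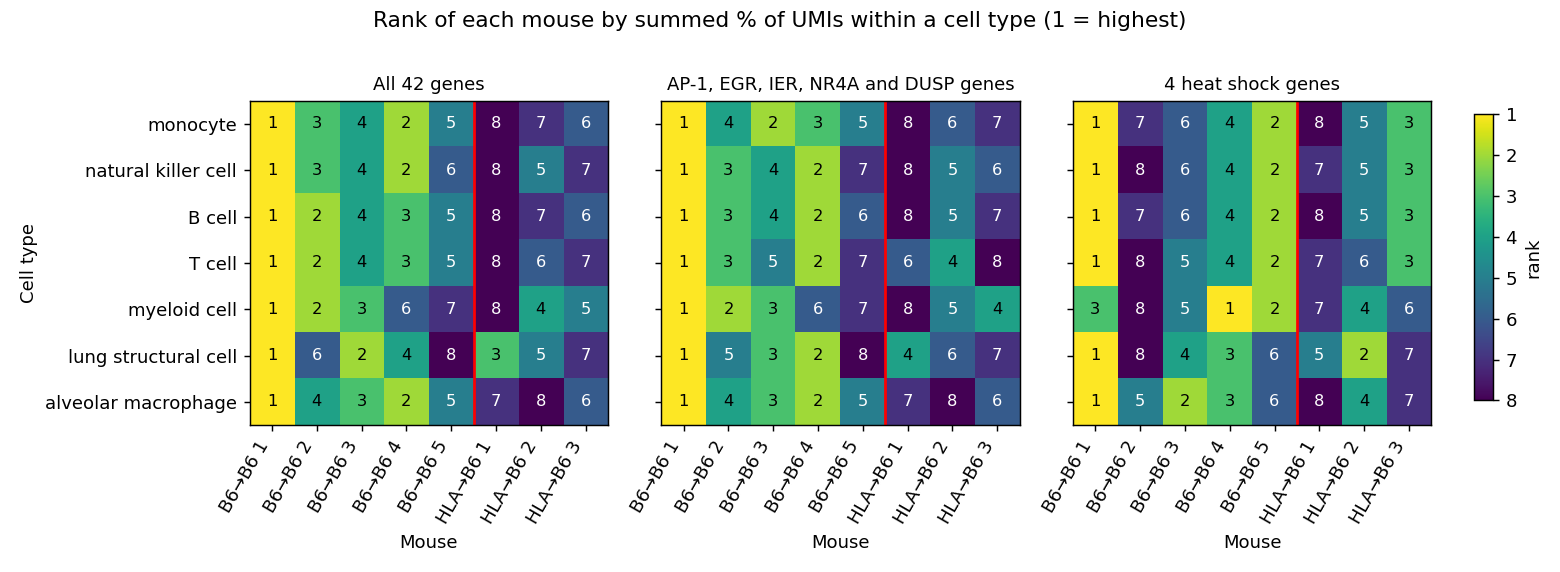
Rank of the 8 mice (columns, B6→B6 left of the red line) in 7 cell types (rows) by the summed percent of UMIs, from 1 (highest, yellow) to 8 (lowest, dark), for all 42 genes, for the AP-1, EGR, IER, NR4A and DUSP genes and for the 4 heat shock genes. B6→B6 mouse 1 ranks first in 7 of 7 types in the first and second panel, and B6→B6 mouse 5 is second in 5 types only in the third.

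Each gene was then compared between the groups in each type with edgeR's quasi-likelihood test on the summed counts, with p adjusted over all genes tested in that type and 0.05 as the threshold. In all, 40 of the 42 genes were tested in at least 1 type, and Egr3 and Nr4a3 in none. Of 248 pairs of gene and type, 207 had a log2 fold change of HLA→B6 over B6→B6 below 0, and 10 pairs passed the threshold. The same 8 mice gave all types, so the pairs are not independent. Of 15 genes tested in all 8 types, 8 were below 0 in each: Fos, Jund, Ier2, Ier5, Dusp1, Zfp36, Btg2 and Klf2. The share of all genes below 0 in every type is not given, so this count does not set the list against all genes. The median log2 fold change of the genes was between -0.60 and -0.28 in the 8 types, while that of all genes tested was between -0.04 and 0.01.

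Monocytes had 34 of the genes tested, and 30 (88.2%) were below 0, against 51.2% of all genes. Fos fell, the only gene past the threshold among 4352 tested (0.023%). It stood at 3269.7, 2552, 2811, 2487 and 1688 CPM in B6→B6 mice 1 to 5 and at 722, 1089.96 and 912 CPM in HLA→B6 mice 1 to 3. Every HLA→B6 mouse was below every B6→B6 mouse. The means were 2562 ± 577 (SD, n = 5) and 908 ± 184 CPM (SD, n = 3), a log2 fold change (HLA→B6 over B6→B6) of -1.53 (SE, the standard error of the fit, 0.20, edgeR adjusted p = 0.00715). Fos (chr12:85473890-85477273 on GRCm38, plus strand) passed the threshold in every one of 20 alternatives, with log2 fold changes from -1.67 to -1.39. At an unadjusted p under 0.05 there were 15 genes of the list (44.1%, all genes 5.03%).

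In the same cells 9 genes (26.5%) had every HLA→B6 mouse below every control, as had 1.24% of all genes. Fosb, a partner of JUN with a short-lived transcript, stood at 129, 137, 168, 101 and 76.0 CPM in B6→B6 and at 15.4, 50.9 and 57.4 CPM in HLA→B6 mice (log2 fold change -1.90 with SE 0.39, edgeR adjusted p = 0.0937). Dusp1, whose window holds the full element shown above, stood at 3977, 2801, 2783, 2156 and 1589 CPM and at 1084, 1518 and 1135 CPM (log2 fold change -1.12, SE 0.23, edgeR adjusted p = 0.0922). In both genes the groups did not overlap. Zfp36l1, an RNA-binding relative of Zfp36, lay the other way, at 70.1 to 175 CPM in B6→B6 and 177, 272 and 243 CPM in HLA→B6 mice (log2 fold change 1.10, edgeR adjusted p = 0.0937). DESeq2 called 5 genes in monocytes, with Fosb, Dusp1 and Zfp36l1 among them. Without B6→B6 mouse 5 edgeR called 4 and without HLA→B6 mouse 3 it called 2. The shares of all genes called in such refits, here and below, are not given. Their counts do not set the list against all genes.

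B cells had 31 genes tested, of which 27 (87.1%) were below 0 (all genes 49%). Dusp2 fell, the 1 called gene of the list. Of 6001 genes 7 passed (0.117%), 1 lower (0.0167%) and 6 higher (0.1%), and 13 of the list had an unadjusted p under 0.05 (41.9%, all genes 4.72%). It stood at 421, 389, 364, 410.4 and 280.3 CPM in B6→B6 mice 1 to 5 and at 181, 198 and 191 CPM in HLA→B6 mice 1 to 3. The groups did not overlap. The log2 fold change was -0.94 (SE 0.17, edgeR adjusted p = 0.0379). Dusp2 (chr2:127336159-127338376 on GRCm38, plus strand) was not called without B6→B6 mouse 1, 2 or 3, without HLA→B6 mouse 1 or 2, or in the unlinked libraries alone. Without HLA→B6 mouse 3 the list had 2 calls.

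The groups did not overlap for 7 of the genes in B cells, all with HLA→B6 below (22.6%, all genes 1.6%). Among them were Rgs2, at 83.8 to 149 CPM in B6→B6 and 35.6 to 71.8 CPM in HLA→B6 mice (log2 fold change -1.19, edgeR adjusted p = 0.239), Jund, at 1289 to 2431 and 643 to 1197 CPM (-0.66, edgeR adjusted p = 0.856), and Btg2, an antiproliferative gene induced by p53, at 359 to 468 and 263 to 356 CPM (-0.41, edgeR adjusted p = 1). None of these 3 passed the threshold.

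Alveolar macrophages had the most calls of the 8 types, in the list as in all genes. Of 32 genes tested, 5 fell (5.92% of all genes fell) and 1 rose (6.36% of all genes rose), together 18.8% against 12.3% of 5798 genes. Below 0 were 21 (65.6%, all genes 52.1%), and 13 had an unadjusted p under 0.05 (40.6%, all genes 29.1%). A total of 8 genes had every HLA→B6 mouse below every control (25%), as had 17.7% of all genes. Markers of the type moved with the groups: the sum of Ear2, Siglecf, Marco, Chil3 and Mrc1 was 8805 to 11222 CPM in B6→B6 and 340 to 4339 CPM in HLA→B6 mice, and all 5 were detected. The sum of 5 monocyte markers was 70.4 to 462 CPM and 336 to 646 CPM, and that of 5 red blood cell markers 361 to 17007 CPM and 4.97 to 456 CPM. Their part in the differences was not tested.

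Fosb fell in these cells, from 198, 109, 161, 286 and 123 CPM in B6→B6 mice 1 to 5 to 25.6, 46.6 and 69.9 CPM in HLA→B6 mice 1 to 3 (log2 fold change -1.76, SE 0.39, edgeR adjusted p = 0.0178). Dusp5, an ERK phosphatase, fell from 33.0, 27.1, 38.7, 68.8 and 47.8 CPM to 14.2, 6.81 and 11.2 CPM (-1.96, SE 0.38, edgeR adjusted p = 0.0115). Myc fell from 36.3, 29.2, 34.6, 48.1 and 32.7 CPM to 16.3, 3 and 2.8 CPM (-2.09, SE 0.49, edgeR adjusted p = 0.0223). The groups did not overlap for any of the 3, and B6→B6 mouse 4, not 1, was the highest mouse for each. Klf4 fell from 138 to 257 CPM to 60.7 to 101 CPM (-0.95, edgeR adjusted p = 0.0296), and Gadd45g, a growth arrest gene, from 45.2 to 95.8 CPM to 14.0 to 35.7 CPM (-1.10, edgeR adjusted p = 0.0489). With TMM scaling the groups overlapped for Gadd45g.

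Rgs1 was the gene that rose. It stood at 138, 136, 128, 81.0 and 126 CPM in B6→B6 and at 211, 273 and 213 CPM in HLA→B6 mice (log2 fold change 1.20, SE 0.21, edgeR adjusted p = 0.00878). Each HLA→B6 mouse was above each control, and Rgs1 (chr1:144242296-144249242 on GRCm38, minus strand) passed in all 20 alternatives. The other calls depended more on single mice. Of the 6 genes, 3 were called without B6→B6 mouse 4 and 3 without HLA→B6 mouse 1, and only Rgs1 without HLA→B6 mouse 2. Without TMM scaling the median of all genes in these cells went from -0.03 to -0.26 and that of the list from -0.28 to -0.53. Of the list 11 genes were called then, and the share of all genes called is not given.

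**Figure D4:**
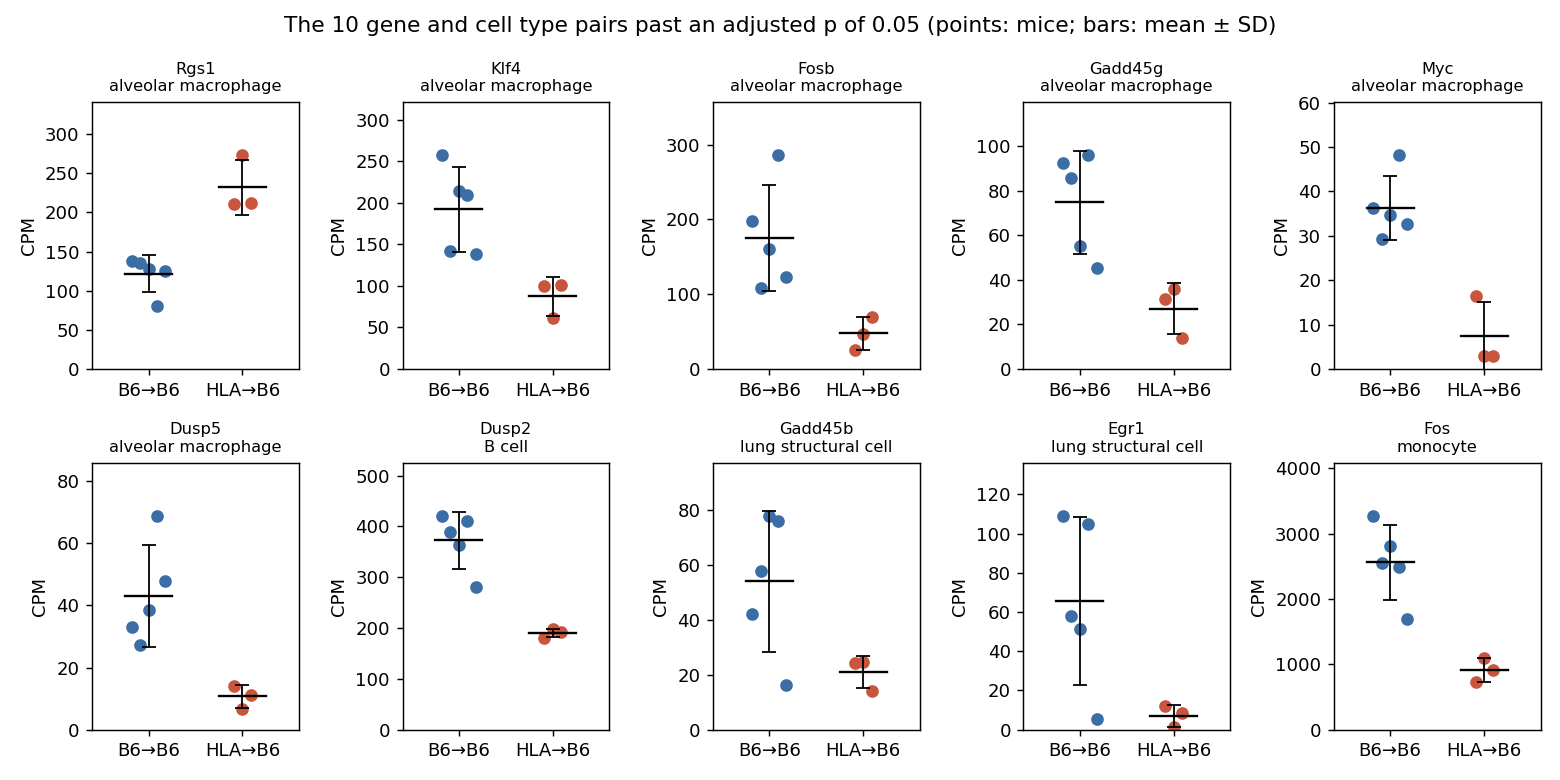
CPM per mouse (y axes, each from 0) of the 10 pairs of gene and cell type past an adjusted p of 0.05 in edgeR, with B6→B6 mice in blue, HLA→B6 mice in red and black bars for mean ± SD. The groups do not overlap in 8 panels, and the lowest B6→B6 mouse lies among the HLA→B6 mice for Gadd45b and Egr1 in structural cells.

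In lung structural cells 33 genes were tested and 28 (84.8%) were below 0 (all genes 50.9%). Egr1, a zinc finger factor induced by growth factors and stretch, and Gadd45b both fell, 2 calls where 0.604% of 8109 genes passed, 0.185% lower and 0.419% higher. At an unadjusted p under 0.05 there were 11 of the list (33.3%, all genes 8.34%). Egr1 stood at 109, 57.8, 51.5, 105 and 5.44 CPM in B6→B6 mice 1 to 5 and at 12.1, 1.11 and 8.26 CPM in HLA→B6 mice 1 to 3 (log2 fold change -3.04, SE 0.56, edgeR adjusted p = 0.0378). Gadd45b stood at 41.9, 57.8, 77.7, 75.8 and 16.3 CPM and at 24.1, 24.4 and 14.2 CPM (-1.42, SE 0.27, edgeR adjusted p = 0.0413). On these values the groups overlapped through B6→B6 mouse 5, and 0 genes of the list had every HLA→B6 mouse below every control (all genes 0.493%). With TMM scaling, whose factors ran from 0.379 to 1.41 in these sums, they did not. Without the red blood cells 3 genes were called, with log2 fold changes of -3.06 for Egr1 and -1.43 for Gadd45b.

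Both calls depended on single mice. Neither gene was called without B6→B6 mouse 2 or 4, without HLA→B6 mouse 1 or 2, without cells that share a barcode, or in the unlinked libraries alone, and 1 was called without B6→B6 mouse 1 or 3. In cluster 0 alone, Egr1 had a log2 fold change of -4.32 (edgeR adjusted p = 0.0605, and 6.62e-05 to 0.583 over its 22 alternatives) and Gadd45b had too few counts for the test. Over the pooled cells of a cluster, Gadd45b was highest in cluster 2, of cells named epithelial (190 CPM), and stood at 18.7 CPM in cluster 0. The part of the mixture of clusters in its difference was not tested.

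In leukocytes, myeloid cells, natural killer cells and T cells edgeR called 0 genes of the list, of 25, 33, 26 and 34 tested. Of all genes it called 0%, 0%, 0% and 0.0698%. At an unadjusted p under 0.05 there were 8, 8, 9 and 13 genes of the list (32%, 24.2%, 34.6% and 38.2%, against 5.15%, 4.89%, 3.25% and 7.45% of all genes). DESeq2 called 0, 1, 0 and 1, Gadd45b in both myeloid and T cells. In leukocytes 25 of 25 genes were below 0 (all genes 51.6%), in myeloid cells 25 of 33 (54.1%), in natural killer cells 23 of 26 (50.2%) and in T cells 28 of 34 (52.5%). Without B6→B6 mouse 4, edgeR called 1 gene in myeloid cells and 1 in T cells.

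Leukocytes had 4 genes with both HLA→B6 mice below every control (16%, all genes 4.93%). Junb stood at 5929, 7020.3, 6300.2, 6826 and 5681 CPM in B6→B6 mice 1 to 5 and at 2388 and 3849 CPM in HLA→B6 mice 1 and 2 (log2 fold change -1.03, SE 0.25, edgeR adjusted p = 0.878). Btg2 stood at 1186 to 1546 CPM and at 585 and 906 CPM, and Fos at 4277 to 5783 CPM and at 1525 and 4019 CPM. Here B6→B6 mouse 1 was not the highest mouse for any of the 3. The sum of 5 plasma cell markers in these cells, with Derl3 at 0, was 62.4 to 140.3 CPM in B6→B6 and 226 to 569 CPM in HLA→B6 mice, and its part was not tested. With 913 genes tested and 2 HLA→B6 mice, these cells gave the smallest test of the 8 types.

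Gadd45b, which binds and activates a MAP kinase kinase kinase in stress signals, had opposite signs in 2 types. In myeloid cells it stood at 94.0, 48.6, 76.4, 87.8 and 27.4 CPM in B6→B6 mice 1 to 5 and at 150.1, 249 and 387 CPM in HLA→B6 mice 1 to 3 (log2 fold change 1.77, SE 0.39, edgeR adjusted p = 0.180). In T cells it stood at 123, 47.1, 55.3, 102 and 26.8 CPM and at 23.2, 25.9 and 12.7 CPM (-1.73, SE 0.40, edgeR adjusted p = 0.169). The groups did not overlap in either type. Set against the other types in the same mice, the difference in myeloid cells was larger by 2.44 on the log2 scale (SE 0.35, limma adjusted p = 0.0619) and that in T cells was -1.56 apart (SE 0.30, limma adjusted p = 0.215). Neither passed 0.05. In myeloid cells the sum of 5 endothelial markers was 9.72 to 87.8 CPM in B6→B6 and 106 to 1362 CPM in HLA→B6 mice, with all 5 detected, and its part in the Gadd45b values was not tested.

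Of the other genes named in these types, myeloid Fosb stood at 49.8 to 176 CPM in B6→B6 and 24.4 to 48.1 CPM in HLA→B6 mice, and myeloid Rgs2 at 123.09 to 364 and 16.8 to 122.78 CPM (edgeR adjusted p = 0.614 and 0.894). In these cells 3 genes had every HLA→B6 mouse below every control (9.09%, all genes 1.14%). In T cells 2 did (5.88%, all genes 1.51%), with Btg2 at 327 to 425 and 233 to 288 CPM (edgeR adjusted p = 0.327). Dusp2 lay the other way in T cells, at 174 to 246 CPM in B6→B6 and 254 to 359 CPM in HLA→B6 mice (log2 fold change 0.47, edgeR adjusted p = 0.350). The markers of natural killer cells, the type with the highest Dusp2, moved the same way in these T cells, and their part was not tested. In natural killer cells the 1 such gene (3.85%, all genes 1.47%) was Ppp1r15a, which ends the block of translation under stress, at 77.2 to 118 and 35.9 to 58.5 CPM (edgeR adjusted p = 0.998).

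The opposite order, with each HLA→B6 mouse above each control, held for 1 gene of the list in alveolar macrophages (all genes 5.14%), monocytes (2.3%), myeloid cells (3.5%) and T cells (3.96%). These were Rgs1, Zfp36l1, Gadd45b and Dusp2. It held for 0 in B cells (all genes 1.5%), leukocytes (5.48%), lung structural cells (0.432%) and natural killer cells (1.34%). Over the types in which they were tested, Rgs1 was below 0 in 1 of 5, Tnfaip3, an inhibitor of NF-κB signals, in 2 of 6 and Dusp6 in 3 of 6.

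**Figure D5:**
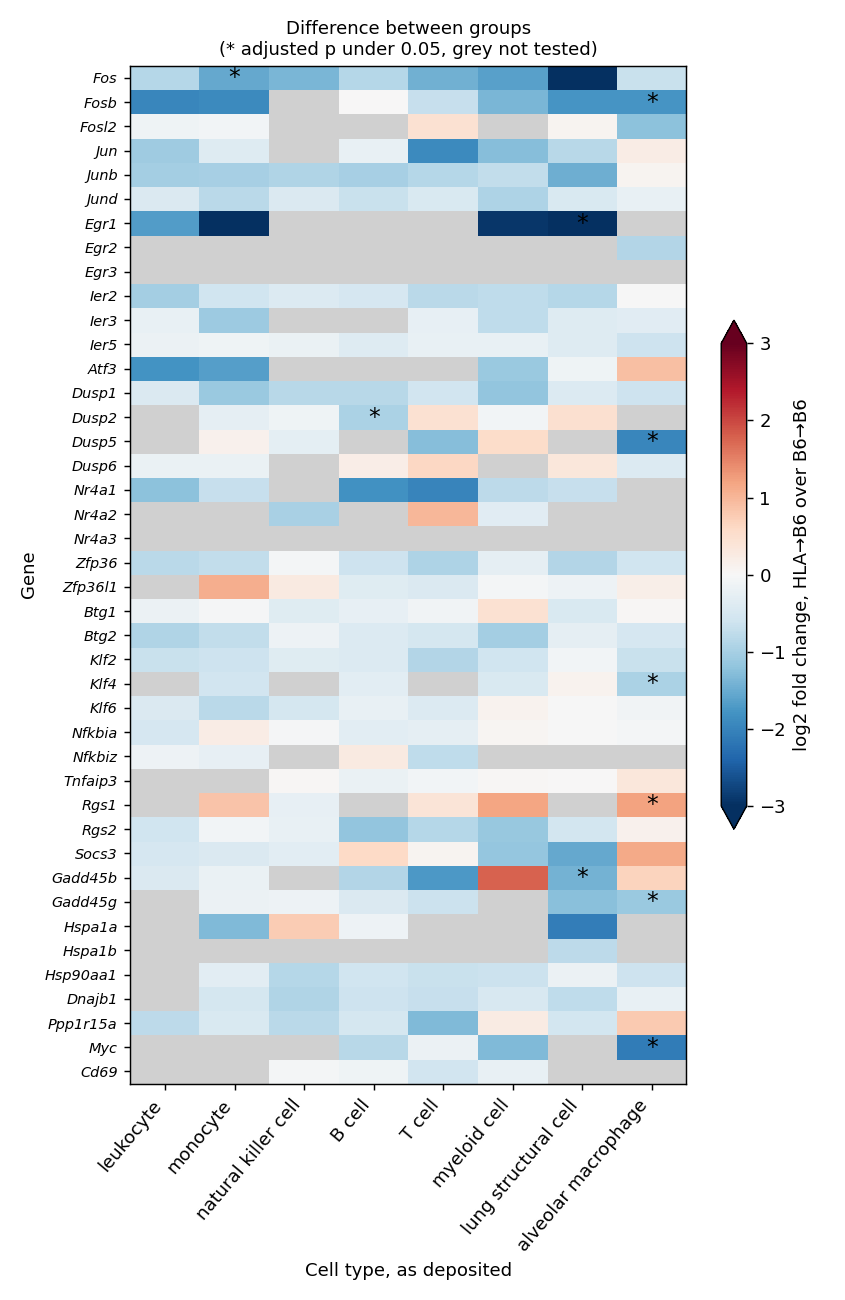
Log2 fold change of HLA→B6 over B6→B6 for the 42 genes (rows) in 8 cell types (columns), blue where lower and red where higher in HLA→B6, clipped at -3 and 3, with a star at an adjusted p under 0.05 and grey where not tested. Fos, Jund, Ier2, Ier5, Dusp1, Zfp36, Btg2 and Klf2 are below 0 in all 8 types, and 10 pairs carry a star.

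Whether a gene differed more in 1 type than in the others was tested with limma on the difference of log2 CPM between that type and the mean of the other 6 in each mouse. In alveolar macrophages 3 of 32 genes passed, as did 5.19% of 5798 genes. Junb had a difference between the groups of 0.14 there and of -0.92 in the other types (1.06 apart, SE 0.19, limma adjusted p = 0.0122). Fos had -0.57 and -1.71 (1.13 apart, SE 0.26, limma adjusted p = 0.0298), and Dusp5 -1.60 and 0.08 (-1.68 apart, SE 0.38, limma adjusted p = 0.0298). Junb in alveolar macrophages stood at 229 to 569.5 CPM in B6→B6 and 327 to 436 CPM in HLA→B6 mice. In the other 6 types limma called 0 genes of the list (all genes 0% to 0.299%). At an unadjusted p under 0.05 there were 4 of 31 in B cells (all genes 265 of 6001) and 7 of 34 in T cells (391 of 7164). Monocytes had 5 of 34 (291 of 4352) and myeloid cells 3 of 33 (179 of 4395). Structural cells had 3 of 33 (475 of 8109) and natural killer cells 3 of 26 (177 of 2987). DESeq2 was not run on this comparison. The test was run with TMM scaling only.

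From lists of related genes outside the 42, calls were made only in alveolar macrophages of the 8 types, where 12.3% of all genes were called. Of 20 further immediate early genes tested there, Plk3 fell and Irf1 rose. Among further heat shock genes, Dnajb6 rose (log2 fold change 0.61, SE 0.17, edgeR adjusted p = 0.0412). Of 14 further NF-κB targets, Relb and Tnip1 rose, and of 10 further stress genes, Mt1 and Xbp1 fell and Ddit3, the unfolded protein response factor CHOP, rose. Ddit3 went from 26.4 ± 9.6 CPM (SD, n = 5) to 81.8 ± 32.9 CPM (SD, n = 3; log2 fold change 1.88, SE 0.32, edgeR adjusted p = 0.00839). The metallothionein gene Mt1 went from 1563 ± 324 to 523.6 ± 255 CPM (-1.38, SE 0.29, edgeR adjusted p = 0.0164).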

How the data were processed

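Single cells of 8 left lung grafts (5 B6→B6 and 3 HLA→B6 mice, 1 library each) were measured. The authors counted UMIs with Cell Ranger on mm10, clustered cells with Seurat and named them with the help of clustifyr and the Tabula Muris data. They also applied SoupX to take out free RNA. The deposited counts are whole numbers with no normalization, and the sources used here do not say whether free RNA had already been removed from them. Cells took mouse and type from the deposited table, and 0 columns of values were left unused. All 20778 cells were kept, also 17 with fewer than 200 UMIs. No doublet caller was run, and cells over 3 times the median UMIs were left out in an alternative.

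Counts were summed per mouse and type (at least 10 cells) and compared with edgeR 4.0.16 (quasi-likelihood, TMM, filterByExpr with a minimum count of 10, Benjamini-Hochberg over all genes of the type). Differences between types were tested with limma 3.58.1 on log2 CPM with a prior count of 2. R 4.3.3 and Python 3.11.15 were used. Sums and ranks are descriptions. Sequences were read from RefSeq tables (GRCm38.p6) and gene positions from the GENCODE annotation of GRCm38.

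The 42 genes, the related lists and the tests were chosen with earlier results of these data known. Named in a type are the genes past the threshold and, where fewer than 3 passed, up to 3 with the largest change among those whose groups did not overlap. For levels, the 3 most abundant genes of a type, the types with a gene's highest and lowest median and the 3 genes most like Fos, Hspa1a and Nfkbia were taken. Genes and values shown beyond this were chosen after their values were seen. Alternatives were DESeq2 1.42.0, no filter, each mouse left out, 20 cells per mouse, cells of at least 500 UMIs, no deep cells, no shared barcodes, linked libraries as a block, the replicate number as a block, Hspa1a and Hspa1b summed, other sublists and the mean log2(CPM + 10). Added after the data were seen were no TMM scaling, unlinked libraries only, mice numbered 1 to 3 without a block, and structural cells without red blood cells or cluster 0 only. The scripts' tests were checked on simulated data. A result of the related lists is not reported here.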

Additional observations from a re-analysis of the deposited data

Results flagged for a closer look

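In 34 sets of 5 B6→B6 mice, 1 mouse stood apart from the other 4 in 3. By chance the rule flags about 1 in 20 independent sets. These sets reuse the same mice and include genes named for their values in these data. The 3 can therefore not be set against that rate. The share of UMIs from the 42 genes in B cells was 1.70% in B6→B6 mouse 1, against 1.27% to 1.35% in the other B6→B6 mice. Rgs1 in alveolar macrophages stood at 81.0 CPM in B6→B6 mouse 4, below the other 4 (126 to 138 CPM), and Btg2 in T cells at 425 CPM in the same mouse, above the other 4 (327 to 354 CPM).

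For 3 genes the difference between HLA→B6 and B6→B6 in alveolar macrophages was not the one in the other types, by limma's test of that difference. It was higher by 1.06 on the log2 scale for Junb and by 1.13 for Fos, and lower for Dusp5 (-1.68). Of all genes tested in these cells 5.19% passed, and of the list 9.38%.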

How the results depend on the processing

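Of 517 refits of the 26 named pairs of gene and type, 443 kept their side of the threshold, 56 lost a call, 18 gained one and 0 changed direction. Shares of all genes called are not given for the other settings, here or above. Their counts do not set the list against all genes. Called genes of the list by type were as follows, with the cause of each change not tested. Without a filter on low counts 7 were called in B cells, 5 in structural cells, 9 in monocytes, 4 in myeloid cells, 3 in natural killer cells and 1 in T cells. DESeq2 called 5 in monocytes, 1 in myeloid cells and 1 in T cells. Without shared barcodes 10 were called in alveolar macrophages and 0 in structural cells, with linked libraries as a block 11 in alveolar macrophages and 2 in monocytes, and without TMM scaling 11 in alveolar macrophages. Without deep cells B cells had 0. In the unlinked libraries alone B cells had 0 and structural cells 0, and cluster 0 alone had 0. No such fit was possible for leukocytes.

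With the replicate block (mice numbered 1 to 3, 3 pairs) the calls were 3 in alveolar macrophages, 3 in B cells, 0 in structural cells, 4 in monocytes, 2 in myeloid cells, 1 in natural killer cells and 4 in T cells. The same mice without the block gave 1 in alveolar macrophages, 1 in B cells, 0 in structural cells, 4 in monocytes, 2 in myeloid cells, 1 in natural killer cells and 1 in T cells. The labels do not say that equal numbers pair mice. Correlations of same-numbered mice ran from -0.221 to 0.206, and those of the other pairs from -0.192 to 0.292. The libraries of B6→B6 mouse 2 and HLA→B6 mouse 2 shared 160 barcodes. Whether equal numbers pair mice cannot be told from these values.

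Leaving out 1 mouse gave 1 to 8 calls in alveolar macrophages, 0 to 2 in B cells, 0 to 3 in structural cells, 1 to 4 in monocytes, 0 to 1 in myeloid cells, 0 in natural killer cells and leukocytes, and 0 to 1 in T cells. The types in which all HLA→B6 mice had a lower summed share than all B6→B6 mice went from 4 to 1 with the mean log2 level, to 2 with the early genes alone and to 0 with the heat shock genes alone. Overlap of single genes was read on CPM. With TMM scaling the groups came to overlap for Gadd45g, Jund and Ier5 in alveolar macrophages and Btg2 and Ier5 in B cells. So they did for Btg2 in monocytes and Fos in leukocytes. They came apart for Junb and Jund in myeloid cells, and for Egr1, Gadd45b, Gadd45g, Junb and Zfp36 in structural cells. With 3 HLA→B6 mice and 17 to 74 leukocytes in 4 of the B6→B6 mice, small differences of scarce genes could not be seen at this depth.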
